A study of Drosophila melanogaster with 33 samples.

Results

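Atx2∆Lsm is the fly Ataxin-2 protein without its Lsm domain, here joined to the editing domain of ADAR, an enzyme that edits RNA, and its edited positions in brain mRNA were set against those of the full-length fusion, Atx2 WT. The comparison rests on 4 lists of edited positions, 2 from Atx2∆Lsm brains and 2 from Atx2 WT brains, among the 12 brain lists of the series. The 4 lists hold 1575 different positions, of 1984 in all 12. A position is a chromosome and a base of the dm6 genome, its gene is the one named beside it in the list, and its level is the percent of reads edited there.

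Both fusions carried a V5 tag and were expressed under elav-Gal4, which acts in neurons, with tub-Gal80ts, so that expression began in the adult after a shift to warmth. All flies were young adults, moved to the warm temperature soon after emergence and kept there for some days. The flies' own Atx2 gene is not stated to have been altered, and each library was made from a pool of dissected brains. The Atx2∆Lsm libraries, like those of the other altered forms, were read as shorter strand-specific pairs, and the Atx2 WT libraries as longer pairs that keep no strand. Read layout and genotype therefore cannot be told apart in any value below. The study calls its Atx2 WT libraries independent replicates without saying whether they came from separate crosses, and differences are measured against the spread between 2 pools.

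Ataxin-2 is a conserved protein of ribonucleoprotein granules that acts on the translation and stability of mRNAs. Its Lsm domain belongs to a fold shared with proteins that form rings on RNA, and its disordered stretches take part in granule assembly. In TRIBE, the method used here, a tethered ADAR domain converts adenosines close to the protein into inosines, which a sequencer reads as guanosines. An edited position therefore marks an mRNA that came near the fusion protein, and its level depends on how often this happened in the cells that express the mRNA.

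The Atx2∆Lsm libraries listed 940 and 884 positions in 728 and 736 genes, against 512 and 471 positions in 407 and 379 genes in the Atx2 WT libraries. The mean of Atx2∆Lsm was 1.86 times that of Atx2 WT, and both Atx2∆Lsm libraries were above both Atx2 WT libraries (exact permutation test over libraries, two-sided p = 0.333, the smallest p that 2 libraries against 2 allow). The lists do not give read numbers, but the study's sequencing summary gives fewer read pairs for Atx2∆Lsm, and scaled to 1000000 read pairs the values were 61.6 and 54.0 positions in Atx2∆Lsm, against 13.2 and 13.7 in Atx2 WT. These scaled values rest on that summary alone, since the study's text describes depth as alike between control and domain-deletion experiments. The forms without the LsmAD domain or the middle disordered region (mIDR), read in the same layout as Atx2∆Lsm, listed 396 and 511 positions for Atx2∆LsmAD and 493 and 286 for Atx2∆mIDR. Both Atx2∆Lsm libraries thus listed more positions than any of these 4 libraries of the same layout, in counts that were not scaled to read pairs.

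A position was called common where both libraries of a genotype listed it. There were 478 common positions in Atx2∆Lsm, or 35.5% of all positions listed in either library, against 312 or 46.5% in Atx2 WT. Of these, 202 were listed in all 4 libraries and are called kept, 199 were common in Atx2∆Lsm and absent from both Atx2 WT lists and are called gained, and 41 were common in Atx2 WT and absent from both Atx2∆Lsm lists and are called lost. A further 77 were common in Atx2∆Lsm with 1 Atx2 WT library, and 69 common in Atx2 WT with 1 Atx2∆Lsm library. Absence means only that a position did not reach the authors' minimum of 15% edited reads or their minimum number of reads, and it does not mean that no read was edited.

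**Figure D1:**
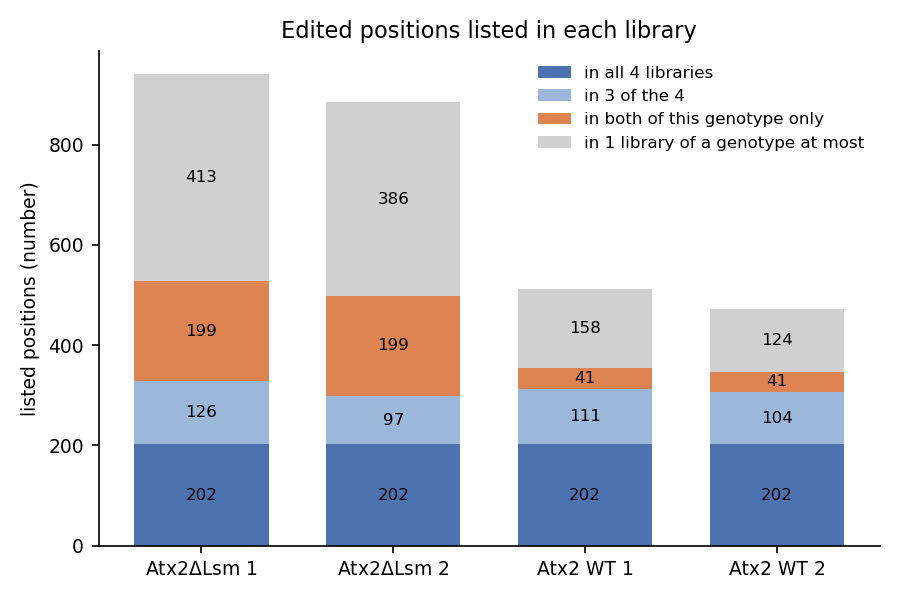
Edited positions listed in each library (bars, number of positions), split by the libraries that share them, with Atx2∆Lsm at the left and Atx2 WT at the right. The 202 kept positions are the base of each bar, the 199 gained positions stand in both Atx2∆Lsm bars, and 413 and 386 positions of the Atx2∆Lsm libraries were listed in at most 1 library of each genotype, against 158 and 124 in Atx2 WT.

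Counted as genes, 177 were kept, with a common position in each genotype, and 172 of them shared at least 1 position between all 4 libraries. Another 158 genes were gained, with a common position in Atx2∆Lsm and no position in either Atx2 WT list, and 28 were lost. A position listed beside more than 1 gene counts for each of them. Position 21368961 on 3R, for example, counts for the gained genes pre-mod(mdg4)-U, pre-mod(mdg4)-V and pre-mod(mdg4)-X. The kept genes made up 43.9% of the 403 genes with a common position in Atx2∆Lsm, and 69.1% of the 256 such genes in Atx2 WT. Most gained positions lay in genes that Atx2 WT did not list at all, 164 of 199, while 24 lay in kept genes. These counts depend strongly on the demand for replication: with 1 Atx2∆Lsm library standing for its genotype, 555 positions were gained without replicate 2 and 548 without replicate 1, and 122 and 148 were lost when Atx2 WT was represented by replicate 2 alone and by replicate 1 alone. Lost positions also numbered 90 without Atx2∆Lsm replicate 1.

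The kept positions were on balance more edited in Atx2∆Lsm. Their median level was 28.6% in each Atx2∆Lsm library, against 24.6% and 23.3% in the Atx2 WT libraries, a difference of 4.68 percentage points (exact permutation test, two-sided p = 0.333, the smallest possible). Of the 202 positions, 144 were higher and 57 lower in Atx2∆Lsm, and 1 was equal. At 90 positions, or 44.5%, both Atx2∆Lsm libraries lay above both Atx2 WT libraries, and at 23, or 11.4%, below them. No position passed an adjusted p of 0.05 in either direction in limma, 0% of those tested, although 38 had an unadjusted p under 0.05. Replicates of Atx2∆Lsm differed by a median of 5.1 points at these positions and those of Atx2 WT by 3.33 points, so that single positions varied between replicates by about as much as a typical position differed between genotypes.

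**Figure D2:**
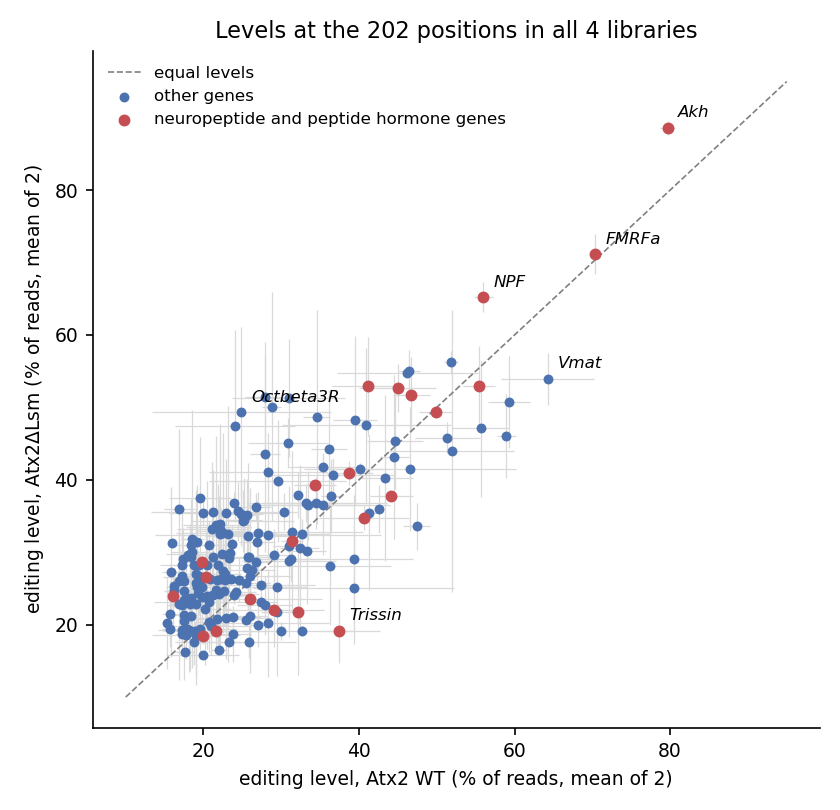
Editing level (percent of reads) at the 202 kept positions, the mean of 2 Atx2∆Lsm libraries on the vertical axis against the mean of 2 Atx2 WT libraries on the horizontal axis, with bars of 1 SD (n = 2 each). Most points lie above the dashed line of equal levels, 144 of 202, and the 22 positions in neuropeptide and peptide hormone genes (red) lie on both sides of it.

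Neuropeptides and peptide hormones, which neurons release from dense core vesicles to act at a distance, had a high kept share. Of 37 expressed genes of this list, 11 were kept, none was gained and CCAP, crustacean cardioactive peptide, was lost, with 22.1% and 17.4% in Atx2 WT. Nplp1 and natalisin were common in Atx2 WT with some listing in Atx2∆Lsm. The kept share of 29.7% stands beside 1.98% of all 8414 expressed genes. The lost share of 2.70%, which is 1 gene, stands beside 0.333%. None gained among 37 is near the 1.74% gained of all expressed genes. Expressed means at least 10 counts in each of the 3 Gal4 control brain libraries. The study drew attention to neuropeptides on these same samples, so the list is not independent evidence of them.

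Akh, adipokinetic hormone, which mobilises stored energy, carried the most edited kept position of the comparison. At position 4142020 on 3L, in its 3′UTR, the level was 87.9% and 89.3% in Atx2∆Lsm, against 80.4% and 79.0% in Atx2 WT. The gene had 6 common positions in Atx2∆Lsm and 4 in Atx2 WT, all in its 3′UTR. The nearby position 4142009 was gained, with 26.3% and 25.3% in Atx2∆Lsm. At the kept position 4141932, Atx2∆Lsm had 28.9% and 28.3%, against 17.7% and 21.8% in Atx2 WT. The libraries of the genotypes did not overlap at 3 of the 4 kept Akh positions, with Atx2∆Lsm above each time, and none passed the test (lowest limma adjusted p = 0.24).

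Neuropeptide F (NPF), a regulator of feeding and arousal, kept all 3 of its positions. Its most edited position had 66.7% and 63.8% in Atx2∆Lsm, against 55.1% and 56.9% in Atx2 WT. The related peptide gene sNPF had 55.4% and 48.1% in Atx2∆Lsm, against 48.4% and 45.1% in Atx2 WT, at the more edited of its 2 kept positions. FMRFa, which encodes FMRFamide peptides, had 69.2% and 73.1% in Atx2∆Lsm, against 70.4% in each Atx2 WT library. At the base beside it, FMRFa had 48.1% and 57.7% in Atx2∆Lsm, against 37.9% and 44.4% in Atx2 WT. These neighbouring bases of one transcript thus differed in whether the genotypes overlapped.

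Some other peptide genes were lower in Atx2∆Lsm at a kept position, while others overlapped or were higher. Trissin, a cysteine-rich peptide, had the largest negative difference of all kept positions, with 22.3% and 16% in Atx2∆Lsm, against 35.9% and 38.9% in Atx2 WT, a difference of -18.25 points (limma, adjusted p = 0.21). Capa, which encodes capability peptides of diuretic control, had 15.6% and 27.8% in Atx2∆Lsm, against 31.9% and 32.4% in Atx2 WT, at a position in its 5′UTR. Myosuppressin (Ms), an inhibitor of muscle contraction, had 37.6% and 38.0% in Atx2∆Lsm, against 42.2% and 46.1% in Atx2 WT, at 1 of its 3 kept positions. Myoinhibiting peptide (Mip) had 49.1% and 56.9% in Atx2∆Lsm, against 54.0% and 56.9% in Atx2 WT. Mip also had 3 positions common in Atx2 WT that only 1 Atx2∆Lsm library listed. Over the 22 kept positions of peptide genes the median difference was 0.5 points, beside 3.95 points over all 202. Atx2∆Lsm lay above Atx2 WT without overlap at 7 of the 22 and below at 4, beside 90 and 23 of all 202. ITP, the ion transport peptide, had 26.7% and 21.1% in Atx2∆Lsm, against 15.9% and 16.3% in Atx2 WT. Allatostatin A (AstA), at 2 positions, and the diuretic hormone gene Dh31, at 1, overlapped between the genotypes. Of the 22 positions, 21 lay in 3′UTRs.

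Genes of monoamine neurons, which use dopamine, serotonin or octopamine, included kept and lost members. Of 11 expressed genes for monoamine transport and synthesis, 3 were kept, 2 were lost and none was gained. Another 2 were common in Atx2 WT with 1 Atx2∆Lsm library. Of all expressed genes, 1.98% were kept, 0.333% lost and 1.74% gained, so that none gained among 11 is near the share of all. Vmat, the vesicular monoamine transporter, had 56.5% and 51.4% in Atx2∆Lsm, against 68.5% and 60% in Atx2 WT, at its most edited kept position. At another kept position of Vmat, the level was 30.6% and 19.6% in Atx2∆Lsm, against 48.4% and 30.2% in Atx2 WT, where the genotypes overlapped. The vesicular transporter gene prt had 41.4% and 34.1% in Atx2∆Lsm, against 37.4% and 35.5% in Atx2 WT. Trh, annotated as Trhn, the neuronal tryptophan hydroxylase of serotonin synthesis, had 23.7% and 30.4% in Atx2∆Lsm, against 24.2% and 21.3% in Atx2 WT.

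DAT, the dopamine transporter, was the lost gene with 2 common positions. Its levels in Atx2 WT were 20.4% and 21.4% in the coding sequence and 15.8% and 31.4% in the 3′UTR, and neither position was listed in Atx2∆Lsm. The 3′UTR position of DAT was listed in Atx2∆LsmAD replicate 1 at 35.0% and in both Atx2∆mIDR libraries at 39.6% and 18.4%. Tdc2, the tyrosine decarboxylase that begins octopamine synthesis, was lost as well, with 22% and 35.7% in Atx2 WT. The serotonin transporter SerT and Tbh, the enzyme that makes octopamine from tyramine, were listed in Atx2∆Lsm replicate 1 only, at 21.2% for the SerT position that had 16.3% and 21.3% in Atx2 WT, and at 18.9% for the Tbh position that had 22.3% and 15.7% in Atx2 WT.

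Of 54 expressed receptors of peptides and monoamines, 2 were kept, or 3.70%, none was gained and 1 was lost, or 1.85%, beside 1.98%, 1.74% and 0.333% of all expressed genes. Octbeta3R, an octopamine receptor, had the largest positive difference of the kept positions, with 41.0% and 57.7% in Atx2∆Lsm, against 16.7% and 33.0% in Atx2 WT (24.5 points; limma, adjusted p = 0.24). The dopamine receptor gene Dop1R2 had 35.0% and 23.7% in Atx2∆Lsm, against 19.6% and 17.3% in Atx2 WT. Lgr1, a glycoprotein hormone receptor, was lost, with 30.6% and 23.3% in Atx2 WT.

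A list of transmitter receptors, enzymes and transporters held both kept and gained genes. Of 40 expressed genes, 3 were kept, or 7.5%, and 5 were gained, or 12.5%, beside 1.98% and 1.74% of all expressed genes. The 3 kept genes act in the cholinergic cycle. Choline transporter CG7708, annotated as ChT, had 30.1% and 30% in Atx2∆Lsm, against 20.5% and 16.6% in Atx2 WT. Acetylcholinesterase (Ace), with 3 kept positions and 1 gained, had 38.3% and 33.6% in Atx2∆Lsm, against 42.6% and 42.7% in Atx2 WT, at the most edited. Choline acetyltransferase, listed as Cha, had 25.5% and 25.0% in Atx2∆Lsm, against 26.6% and 32.2% in Atx2 WT. The 5 gained genes were 3 of GABA signalling and 2 of glutamate receptors, none of them listed in Atx2 WT. Gad1, which makes GABA, had 20.1% and 18.0% in Atx2∆Lsm. Rdl, the GABA-gated chloride channel, had 18.2% in each library, at a position in an intron. GABA-B-R2, a metabotropic GABA receptor, had 37.9% and 27.6%, in the coding sequence. The glutamate receptor genes GluRIB and CG3822, annotated as KaiR1D, had 21.2% and 18.5%, and 36.2% and 25.0%, in the Atx2∆Lsm libraries. Without the 6 crowded regions described further on, 2 of these 5 genes, Gad1 and CG3822, were still gained.

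Of 40 expressed genes of synaptic vesicle release and recycling, 5 were gained, or 12.5%, 3 kept, or 7.5%, and 1 lost, or 2.5%, beside 1.74%, 1.98% and 0.333% of all expressed genes, and 5 more were common in Atx2∆Lsm with listing in 1 Atx2 WT library. The gained genes were nSyb, the vesicle SNARE, at 28.7% and 41.7% in Atx2∆Lsm; comt, the SNARE-disassembling ATPase NSF, at 17.1% and 18.7%; its cofactor alphaSnap at 16.7% and 20.7%; shi, the dynamin of membrane fission, at 22.8% and 15.1%; and Syngr, synaptogyrin, at 26.1% and 17.4%. Apart from nSyb, at least 1 library lay within a few points of the 15% minimum for each. Of the 5, all but nSyb lay outside the crowded regions described further on. Their mRNAs are abundant: nSyb averaged 735 ± 33.1 CPM per kb (counts per 1000000 counts, per kb of transcript) in the Gal4 control brains, comt 309 ± 54.8 and shi 494 ± 49.5 (SD, n = 3). Rab27, a GTPase of secretory vesicles and a kept gene, had 3 kept and 3 gained positions, with 33.3% and 28.6% in Atx2∆Lsm, against 22.9% and 18.5% in Atx2 WT, at 1 of the kept ones. IA-2, a dense core vesicle protein, had 34.9% and 38.7% in Atx2∆Lsm, against 37.1% and 29.2% in Atx2 WT. Cbp53E, a calcium-binding protein, had 38.6% and 31.6% in Atx2∆Lsm, against 24.8% and 26.4% in Atx2 WT. These 3 genes held 7 kept positions, with a median difference of 4.09 points. Atx2∆Lsm lay above Atx2 WT without overlap at 2 of the 7, the Rab27 and Cbp53E positions given here, and below at none. Rabphilin (Rph), which binds Rab proteins on vesicles, was lost, with 22.8% and 18.4% in Atx2 WT. The channel list held no kept or gained gene among 34 expressed, and 1 lost gene, or 2.94%, beside 1.98% kept, 1.74% gained and 0.333% lost of all expressed genes. This was CG42732, annotated as the potassium channel SLO2.

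RNA-binding and translational control genes gave 6 kept, 3 gained and 2 lost of 58 expressed, or 10.3%, 5.17% and 3.45%, beside 1.98%, 1.74% and 0.333% of all expressed genes. Atx2 itself was gained at 1 position of its coding sequence, 15414614 on 3R, with 15.7% and 15.8% in Atx2∆Lsm. The fusion transgene contains Atx2 coding sequence, so reads from it and from the resident gene cannot be told apart there. The splicing factor pasilla (ps) had 54.9% and 54.8% in Atx2∆Lsm, and Syncrip (Syp) had 36.0% and 15.9%. Of the 3 gained genes, Atx2 and Syp lay outside the crowded regions described further on, and ps lay inside them. The hnRNP gene Hrb98DE had 37.6% and 34.9% in Atx2∆Lsm, against 25.3% and 28.1% in Atx2 WT. Rbp9, of the ELAV family, had 17.8% and 17.5% in Atx2∆Lsm, against 24.8% and 21.9% in Atx2 WT. The genotypes overlapped at the kept positions of fne, also of the ELAV family, the splicing repressor heph and the translational regulator mei-P26. In bol, a translation factor of the Boule family, the kept position had 22.4% and 23.8% in Atx2∆Lsm, against 25.9% and 28.8% in Atx2 WT, while 2 other positions were gained and 1 was lost. The translational repressor brat and the CELF-family gene bru-2 were lost, with 15.6% and 15.8%, and 22.9% and 15%, in Atx2 WT. Neither per nor CaMKII, known mRNAs of Atx2-dependent control, was listed in any of the 4 libraries, and Adar had no common position in either genotype.

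Signalling genes gave 7 kept and 2 gained of 49 expressed, or 14.3% and 4.08%, beside 1.98% and 1.74% of all expressed genes. 14-3-3epsilon, an adaptor of phosphorylated proteins, had 33.8% and 22.4% in Atx2∆Lsm, against 41.9% and 30.8% in Atx2 WT, where the genotypes overlapped. The cAMP phosphodiesterase gene dnc had 22.4% and 38.7% in Atx2∆Lsm, against 34.1% and 30.6% in Atx2 WT. The G protein gene Galphas and the receptor phosphatase gene Lar were gained, at 17.2% and 18.5%, and at 22.7% and 20.8%, in Atx2∆Lsm. Hipk, a protein kinase listed as hipk, had 1 common position in Atx2∆Lsm and 4 in Atx2 WT, but 8 and 7 positions listed in at least 1 library of these genotypes. Among neuronal adhesion genes, 5 were kept, 3 gained and 1 lost of 91 expressed, or 5.49%, 3.30% and 1.10%, beside 1.98%, 1.74% and 0.333% of all expressed genes. Only 1 of the 3 gained, klg, lay outside the crowded regions described further on, while beat-IIa and Dscam3 lay inside them. The gained gene beat-IIa, of the beaten path family of axon guidance, had 52.6% and 45.7% in Atx2∆Lsm, and its relative beat-VI was lost, with 20.2% and 43.4% in Atx2 WT. Of 84 expressed cytoplasmic ribosomal protein genes, RpL19 and RpS10b were kept, or 2.38%, near the 1.98% of all expressed genes, and RpS10b had 43.8% and 28.1% in Atx2∆Lsm, against 18.3% and 15.5% in Atx2 WT.

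Outside these lists, the largest positive difference at a kept position without overlap was in Lpin, the lipid phosphatase lipin, with 46.2% and 56.8% in Atx2∆Lsm, against 26.1% and 29.7% in Atx2 WT (23.6 points; limma, adjusted p = 0.21). CG42797, annotated as the ubiquitin ligase Hecw, had 56.8% and 38.1% in Atx2∆Lsm, against 18.6% and 29.5% in Atx2 WT. Hs6st, a sulfotransferase of heparan sulfate, had 38.9% and 61.3% in Atx2∆Lsm, against 27.9% and 29.6% in Atx2 WT. Hop, annotated as the co-chaperone Stip1, had 31.6% and 43.5% in Atx2∆Lsm, against 22.4% and 16.7% in Atx2 WT. Pallidin and CG8814 followed, higher by 20.35 and 15.65 points. The replicates of Atx2∆Lsm lay far apart in these genes. Below zero, the uncharacterised genes followed Trissin. CG11000 had 35.9% and 31.3% in Atx2∆Lsm, against 48.6% and 46.2% in Atx2 WT, and CG12541 had 20% and 18.2% in Atx2∆Lsm, against 29.4% and 30.6% in Atx2 WT. CG12502 was lower by 13.55 points and CG30158 by 12.88 and 8.55 at the positions without overlap. CG34362, annotated as trv, had 3 kept positions that differed by -4.1, 0.0 and 4.6 points.

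The most edited gained genes had varied functions. CG7967, annotated as Vta1, which acts in endosomal sorting, reached 83.9% and 90.9% in Atx2∆Lsm at position 1652568 on 3L, in its coding sequence, and 68.6% and 72.7% at a second one. Psa, a puromycin-sensitive aminopeptidase, had 51.2% and 56.5%, in an intron. CG7971, annotated as Srrm234, had 48.7% and 54.5%. CG7852, annotated as pns, had 44.3% and 50%, CG12004, annotated as Tmep, 50.3% and 43.1%, the Golgi mannosidase gene alpha-Man-II 41.0% and 50%, and CG8176 45.0% and 41.9%. None of these positions was listed in Atx2 WT. Most gained genes, 147 of 158, had a single common position. The 11 others included CG12004 with 4, CG7852 with 3, and CG12025, CG12090, CG12093, CG3107, CG43427, CG7967, CG9977 and Sur-8 with 2 each.

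**Figure D3:**
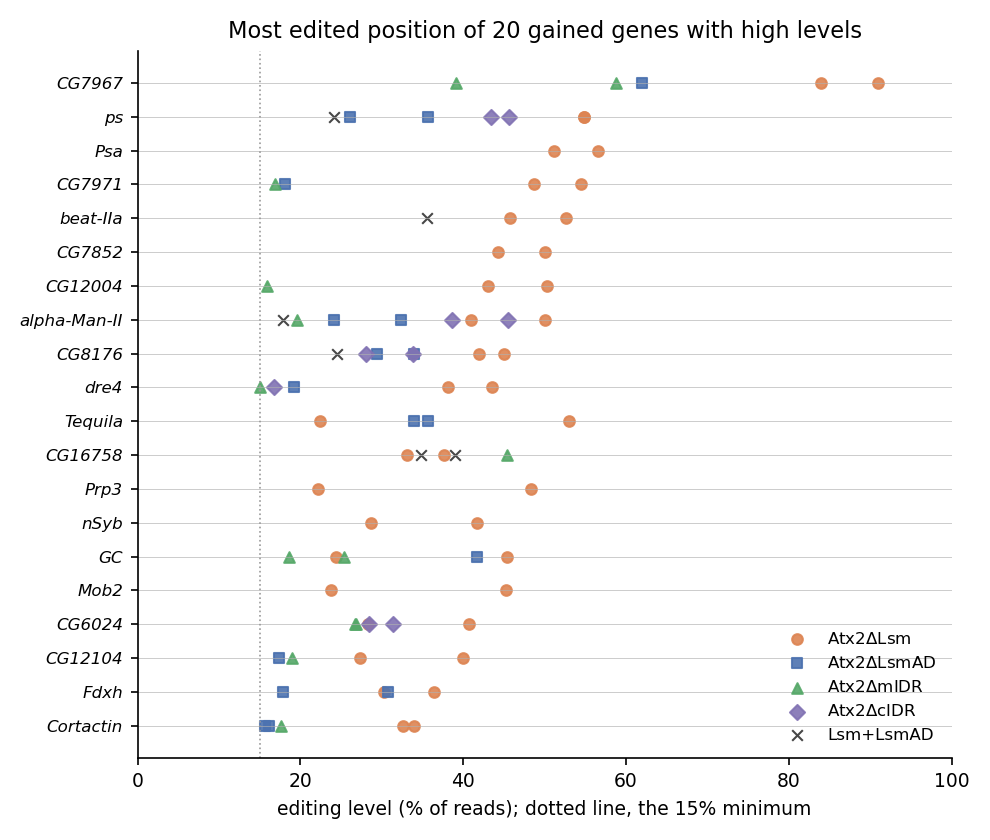
Editing level (percent of reads, horizontal axis) at the most edited common position of 20 gained genes with high Atx2∆Lsm means, 1 row per gene and 1 symbol per library in which the position was listed. CG7967 reaches 83.9% and 90.9% in Atx2∆Lsm, and ps and alpha-Man-II are listed in the Atx2∆cIDR and Lsm+LsmAD libraries as well; no Atx2 WT library listed any of them.

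Gained positions were crowded in a few places of chromosome 3. Of the 1 Mb bins of the genome, 6 held 5 or more gained positions, and these bins held 67 of the 199, or 33.7%, against 7 of the 202 kept positions, or 3.47%, and 5.57% of the expressed genes. The bin from 1000001 to 2000000 on 3L held 27 gained and 2 kept positions, and the bin from 9000001 to 10000000 on 3L held 14 gained and 2 kept. The largest number of kept positions in any bin was 9. All 10 gained genes with the highest levels lay in these 6 bins. The bins were defined from the gained positions themselves, so the contrast is a description. Gained positions inside the bins had median levels of 31.7% and 22.2% in the Atx2∆Lsm libraries, and those outside them 19.4% and 19.5%. At a mean of 30% or more, there were 30 gained positions inside the bins and 7 of 132 outside.

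**Figure D4:**
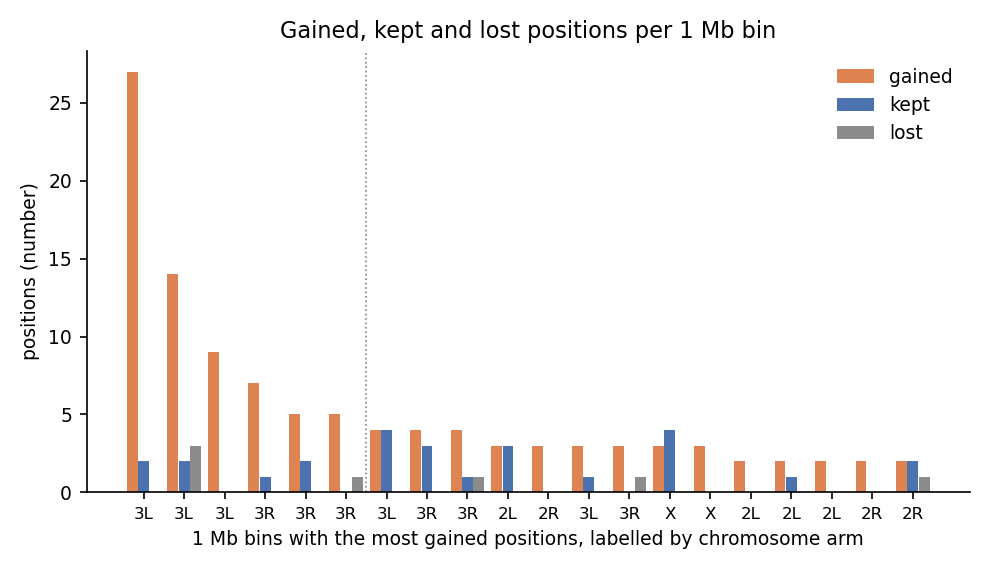
Number of gained, kept and lost positions (vertical axis) in the 20 bins of 1 Mb that hold the most gained positions, in falling order and labelled by chromosome arm. The 6 bins left of the dotted line hold 5 or more gained positions each, up to 27 in 1 bin of 3L, with at most 2 kept positions in any of them.

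The same places were listed in altered forms that kept few Atx2 positions. Of the 202 kept positions, the fragment made of the Lsm and LsmAD domains alone (Lsm+LsmAD) listed none in either library, and the form without the C-terminal disordered region (Atx2∆cIDR) listed 22. Of the 199 gained positions, Lsm+LsmAD listed 29 and Atx2∆cIDR listed 17, and 21 of the 29 were inside the 6 bins. In the position of ps, Atx2∆cIDR had 43.4% and 45.6% and Lsm+LsmAD replicate 2 had 24.1%, beside 54.9% and 54.8% in Atx2∆Lsm. The coding positions of CG12093 were listed in all 8 libraries of the other altered forms, with 32.6% and 27.3% in Lsm+LsmAD at one of them, where Atx2∆Lsm had 25.0% and 24.4%. Whether inherited sequence differences between fly lines contribute at such positions was not tested, since the lists give neither bases nor read numbers. Leaving out every position listed in Atx2∆cIDR or Lsm+LsmAD, a choice made after seeing the data, 163 positions were gained, 180 kept and 38 lost. Without the 6 bins, 132 positions in 105 genes were gained, 195 positions kept and 37 lost.

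With the forms that share the read layout, kept and gained positions also parted. Of the kept positions, 173, or 85.6%, were listed in at least 1 Atx2∆LsmAD library and 172, or 85.1%, in at least 1 Atx2∆mIDR library. Of the gained positions, 73, or 36.7%, and 63, or 31.7%, were. Of the lost positions, 13, or 31.7%, and 7, or 17.1%, were. Inside the 6 bins, Atx2∆LsmAD listed 39 and Atx2∆mIDR listed 30 of 67 gained positions. Outside the bins they listed 34 and 33 of 132. No list of the 8 libraries of the other forms held 95 of the gained positions, or 47.7%, against 13 of the kept positions, or 6.44%, and 23 of the lost, or 56.1%. The nSyb, Gad1, Rdl and Atx2 positions were among those listed in Atx2∆Lsm alone. Kept positions were defined by listing in all 4 libraries, and gained or lost ones by absence from the lists of 1 genotype. How often the classes were listed again therefore cannot be separated from this definition and is given as a description.

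**Figure D5:**
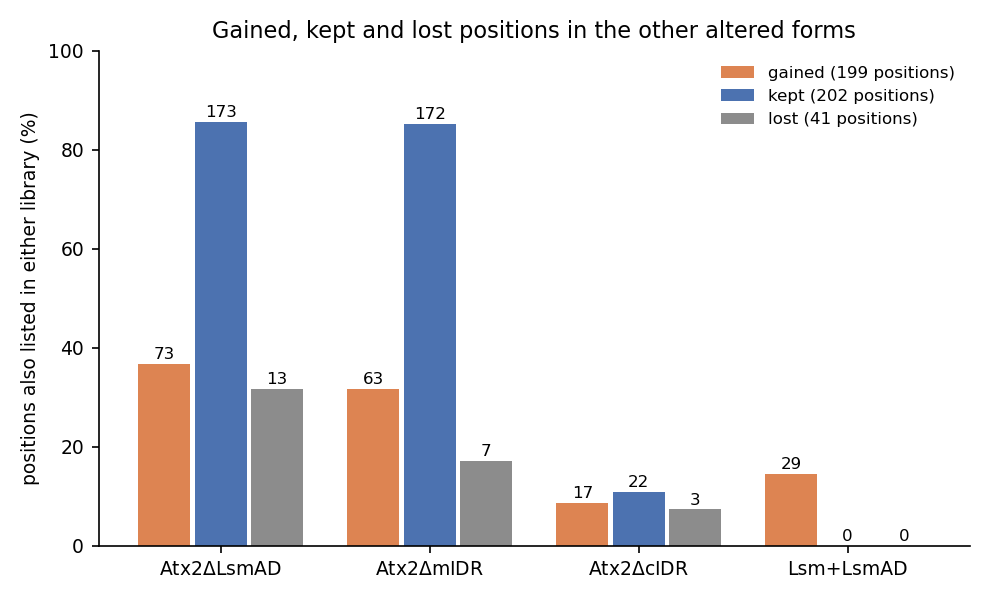
Percent of gained, kept and lost positions (vertical axis) that either library of each other altered form also listed, with the number of positions above each bar. Kept positions were listed at 85.6% and 85.1% in Atx2∆LsmAD and Atx2∆mIDR and at 0% in Lsm+LsmAD, where 29 of 199 gained positions were listed.

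Gained positions differed from kept ones in their place on the transcript. Of the gained positions, 50.3% lay in a 3′UTR (95% Wilson interval 43.4 to 57.1) and 43.7% in coding sequence (37.0 to 50.7), against 76.7% (70.4 to 82.0) and 19.8% (14.9 to 25.8) of the kept. Lost positions had 34.1% in a 3′UTR (21.6 to 49.5) and 43.9% in coding sequence (29.9 to 59.0), a coding share near that of the gained. In a 5′UTR lay 17.1% of the lost positions (8.53 to 31.3), where gained and kept had 3.52% and 1.49%. Outside the 6 bins, the 3′UTR share of the gained positions was 56.8%. These intervals cover counting error only, and positions in 1 gene are not independent. Over all listed positions the 3′UTR share was 53.9% and 61.0% in the Atx2∆Lsm libraries, against 68.2% and 65.6% in the Atx2 WT libraries. At kept positions, the median difference was 3.75 points in 3′UTRs (155 positions) and 4.07 points in coding sequence (40 positions).

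The levels of gained and of lost positions lay below those of kept positions. The classes were themselves defined by listing, which requires the authors' minimum level. Kept positions had to reach it in every library of both genotypes, and gained or lost positions in those of a single genotype. The contrast in level therefore cannot be separated from this definition and is given as a description. Gained positions had medians of 21.1% and 20.3% in Atx2∆Lsm, with 76 of 199 under a mean of 20%. Lost positions had medians of 19.4% and 21.0% in Atx2 WT, with 19 of 41 under a mean of 20%. The 10 lost genes with the highest levels were led by CG42732, with 31.7% and 46.4% in Atx2 WT, and the protease gene Taspase1, with 31.0% and 33.3%, followed by beat-VI, Su(var)3-7 of heterochromatin, Tdc2, CG10866, Lgr1, nbs, which acts in DNA repair, igl and DAT.

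The 3 classes also differed in mRNA abundance, read from 3 Gal4 control brain RNA-seq libraries of the series with 11169973 to 13917685 counts each. The median was 29.9 ± 1.76 CPM per kb for gained genes, 46.8 ± 1.89 for kept genes and 10.8 ± 1.37 for lost genes, beside 13.4 ± 0.776 for all expressed genes (SD of the library medians, n = 3). Among lost genes, CCAP had 4.44 ± 1.39, Lgr1 7.13 ± 0.794 and Tdc2 11.1 ± 2.69 CPM per kb. Other lost genes were above the kept median, with 358 ± 13.5 CPM per kb for igl, 57.5 ± 6.97 for CG42732 and 52.9 ± 4.32 for beat-VI. A position needs reads to be listed, and the part of abundance and depth in the losses was not tested. In these brains all 12 neuron markers were expressed, with a summed level of 3771 to 4120 CPM per kb, as were all 10 glia markers. Of the neuron markers, 2 were kept (Cha and fne) and 2 gained (Gad1 and nSyb). No glia, photoreceptor, fat body or hemocyte marker was gained, kept or lost, in short lists beside 1.74%, 1.98% and 0.333% of all expressed genes.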

How the data were processed

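The edit lists hold percent values from the authors: after alignment to dm6 (TopHat2), the TRIBE pipeline compared each library with control brains and retained positions above a minimum number of reads and 15% edited. Lists give no read numbers, so single percents have no interval. The counts of the 3 Gal4 control brains were deposited by the authors from STAR and HTSeq without normalization. Positions were placed on Ensembl release 115 (dm6 coordinates), 3′UTR before coding sequence before 5′UTR, and old gene symbols were matched through RefSeq synonyms; 3 symbols that a spreadsheet had turned into dates were restored. Kept positions were tested with limma 3.58.1 (R 4.3.3, percent scale, Benjamini-Hochberg), checked on simulated data, and single values with exact permutation tests (Python 3.11.15, scipy 1.17.1). Read pairs per library came from the study's sequencing summary.

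The members, gene lists and tests were chosen with earlier results of these data known. Named genes were kept genes with 3 or more positions in all 4 libraries, the 10 most edited gained and lost genes and those with 2 or more common positions, the 8 largest increases and decreases without overlap, members of the peptide, monoamine, channel, transmitter, vesicle and RNA-binding lists, and Akh, Vmat, 14-3-3epsilon, Atx2, Adar, per and CaMKII. Signalling, adhesion, ribosomal and marker genes, dense bins and single named positions were chosen after their values were seen. Another 18 samples of the series were not used here. A gene that the rule names is not reported here, in the text or the plot of gained genes.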

Additional observations from a re-analysis of the deposited data

How the results depend on the processing

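Single percents carry no read number, so their precision is unknown, and 2 libraries against 2 cannot give an exact p under 0.333. With a minimum of 20%, 113 positions in 101 genes were gained, 100 in 86 kept and 20 in 16 lost; with 30%, 39 in 37, 38 in 28 and 4 in 4. With absence taken as not common, 110 positions and 79 genes were lost. Without the crowded bins, an alternative chosen after seeing the data, 132 positions and 105 genes were gained. Leaving out each library in turn gave 234 to 555 gained, 222 to 251 kept and 61 to 148 lost positions, and 187 to 424 gained, 201 to 216 kept and 43 to 88 lost genes, since fewer lists must then agree. Listed positions in Atx2∆Lsm were 1.78 to 1.94 times those of Atx2 WT without each library in turn, 2.09 and 2.43 times at minimums of 20% and 30%, 1.68 times without the crowded bins and 4.29 times per read pair. The difference between the median levels of the genotypes at kept positions, 4.68 points with all libraries, was 4.03 to 5.33 points without each library in turn.

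The count of kept positions passing limma was 0 in each direction under log2 odds, at 20% or more and without each library, 1 higher with a mean-variance trend, and 9 higher and 1 lower with a replicate block. Labels give no shared origin for same-numbered libraries, whose deviations correlated at 0.145 over 202 positions. Without division by length, gained genes had 0.568 and lost genes 0.179 times the median abundance of kept genes, beside 0.638 and 0.230. The 3′UTR and coding shares of the 3 classes stayed within their intervals under the alternatives tried; 5′UTR shares were not recomputed. The sequence around positions was not run, since no genome sequence was used here.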
